A study of Drosophila melanogaster with 4 samples.

Results

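A set of 42 genes was silent, or nearly so, in a clone of *Drosophila* S2R+ cells lacking the intronic enhancer of *Notch*, while the same genes gave reads in both wild-type libraries. The genes were chosen by their reads, that is, by the estimated counts of their transcripts summed per gene. A gene was taken when it had at least 10 reads in both wild-type libraries and fewer than 3 in both mutant libraries. Of the 13909 genes quantified, 7934 reached 10 reads in both wild-type libraries and the 42 are 0.529% of those. Because these counts selected the genes, their fall in the mutant is given as a description and without a test.

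The data came from RNA-seq of S2R+ cells, a cultured line of late embryonic origin grown at 25°C. The mutant cells carried a homozygous CRISPR-Cas9 deletion of the enhancer in an intron of *Notch*, obtained by transfection of guide and Cas9 plasmids, puromycin selection and expansion of a clone from a diluted pool. The wild-type cells were S2R+ cells with an unedited *Notch* locus. Each condition had 2 libraries of total RNA, read as paired ends of 150 bp. Nothing in the labels says that the libraries of a condition came from separate cultures, so p-values measure only the spread between libraries, which may be technical. An unedited clone was not analysed here, so effects of the deletion and differences between clones of the line cannot be told apart. In bulk RNA, fewer cells expressing a gene and less RNA per cell cannot be told apart either.

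S2R+ cells resemble hemocytes, the blood cells of the fly, which engulf debris and secrete extracellular matrix. A cultured line also transcribes, at low levels, many genes better known from neurons, muscle, germ line or epithelia.

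Depth was 29605002 and 24880286 estimated counts in the enhancer mutant libraries and 19410313 and 16240543 in the wild-type libraries, so the counts below 3 were found in the deeper libraries. *Notch* itself, the targeted gene, had 1064 and 809 reads in the mutant libraries and 3276 and 2208 in the wild-type libraries. Its log2 fold change was -1.96 ± 0.13 (SE) with an adjusted p of 9.46e-07 by the quasi-likelihood test of edgeR, adjusted by Benjamini-Hochberg, which is the direction the labels give. Of 11 hemocyte markers, 5 exceeded 1 TPM in every library, namely *srp*, *Pxn*, *crq*, *Ppn* and *ush*, and the summed level of the 11 was 251 and 220 TPM in the mutant and 234 and 220 TPM in wild type. Within that sum markers moved in opposite directions, *crq* (log2 fold change 1.12), *Ppn* (1.97) and *He* (2.75) being called higher and *Hml* (-1.79), *Col4a1* (-1.29) and *vkg* (-0.54) lower in the mutant. *NimC1* and *eater*, other defining markers of hemocytes, were near 0. The neuronal list summed to 14.7 and 14.3 TPM in the mutant and 24.8 and 20.2 TPM in wild type, with *brp* and *Syt1* near 0. The muscle list summed to 0.364 and 0.331 TPM in the mutant and 0.919 and 0.985 TPM in wild type. The germ line list, mostly *aub*, summed to 75.8 and 61.5 TPM in the mutant and 57.9 and 67.4 TPM in wild type. The glial list summed to 95.4 and 81.7 TPM in the mutant and 151 and 154 TPM in wild type, with *repo* near 0. The fat body list stayed at or below 0.215 TPM. The part of such markers in the changes below was not tested.

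Together the 42 genes held 44 and 36 reads in the enhancer mutant libraries and 1284 and 1093 reads in the wild-type libraries. No read at all was assigned in the mutant to 8 of them, which are *stnB*, *GstE10*, *CG30091*, *His2B:CG17949*, *CG9072*, *LS2*, *Teh4* and *CG34184*. At most 2 mutant reads in all, with each library rounded to a whole number, were assigned to 30. Every one of the 42 passed the filter on low counts and was called lower (adjusted p below 0.05 and a log2 change of at least 0.5), where 15.3% of the 8182 genes tested were called lower and 12.6% higher. Since the rule used the same contrast, nothing is read from that count. All but 1 of the genes code for proteins, the exception being the pseudogene *CR33221*. A given name is carried by 24 genes and the other 18 have a CG or CR number alone.

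**Figure D1:**
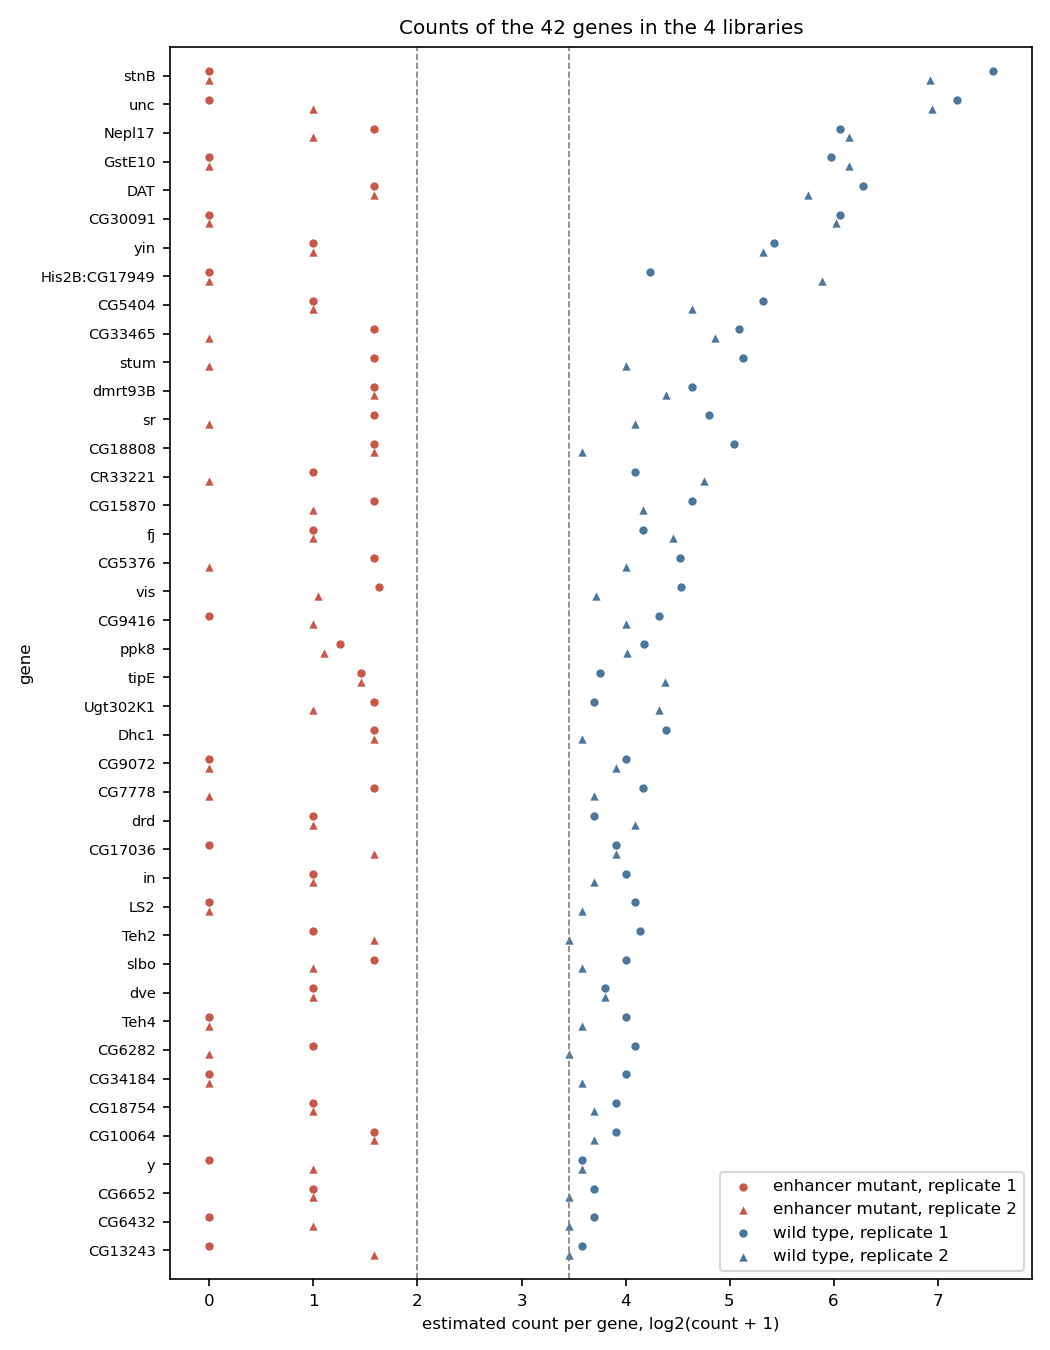
Estimated counts of the 42 genes on a log2(count + 1) axis, with a row per gene and a point per library, enhancer mutant in red and wild type in blue, and dashed lines at the limits of 3 and 10 reads used to choose the genes. Counts of *stnB* and *unc* are the farthest apart between the conditions, while most rows end just above 10 wild-type reads.

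The genes were weakly expressed in wild-type cells. Their mean wild-type level ran between 0.0533 TPM for *Dhc1* and 6.22 TPM for *His2B:CG17949*, with a median of 0.523 TPM, against a median of 25.3 TPM over all genes with 10 reads in both wild-type libraries. A mean level below 1 TPM was found for 30 of the 42, and 5 reached 2 TPM, namely *His2B:CG17949* (6.22 TPM), *GstE10* (4.11 TPM), *CG15870* (3.47 TPM), *CG9072* (2.47 TPM) and *CG30091* (2.27 TPM). In reads, the median was 16.2 per wild-type library, against 831 for all genes of that kind. Fewer than 20 reads in at least 1 wild-type library were seen for 32 genes. Only *stnB*, *unc*, *DAT*, *Nepl17*, *CG30091* and *GstE10* had 50 or more in both.

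The share of genes chosen differed by wild-type count, which the rule itself favours. With a fixed mutant limit, a gene with few wild-type reads needs a smaller fall to be taken than a gene with many. The share was 8.07% (26 of 322 genes) at a mean of 10 to 20 reads, 1.81% (10 of 551) at 20 to 50, 1.12% (4 of 357) at 50 to 100 and 0.403% (2 of 496) at 100 to 200. None of the 6208 genes with 200 or more reads was silent. Of the 6616 genes with at least 100 reads in both wild-type libraries, *stnB* and *unc* were the 2 with fewer than 3 in both mutant libraries, and 5 had fewer than 10.

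**Figure D2:**
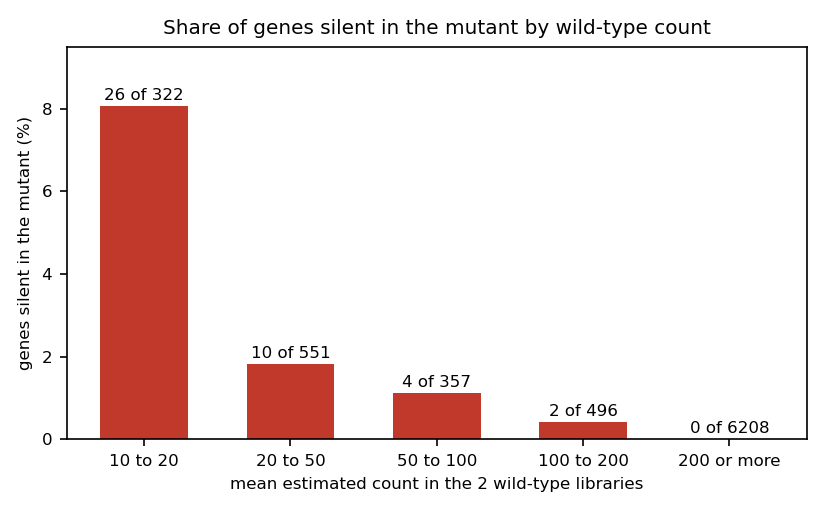
Share of genes silent in the enhancer mutant (vertical axis, %) by the mean estimated count in the 2 wild-type libraries (horizontal axis), among the 7934 genes with at least 10 reads in both, with the number of silent genes above each bar. The share is 8.07% in the lowest group and 0 of 6208 in the highest.

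The auxiliary subunits of the voltage-gated sodium channel formed the largest positional group. Channels of the fly are built on the pore-forming subunit Para, and TipE and the TipE homologs (Teh) are membrane proteins that modify its amount and gating in neurons. *Teh4* (chr3L:4174859-4178270, dm6), *Teh2* (chr3L:4178980-4188023) and *tipE* (chr3L:4188499-4193788) lie side by side, the start of *Teh2* 4.12 kb from that of *Teh4* and the start of *tipE* 9.52 kb from that of *Teh2*.

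*Teh4* had 0 and 0 reads in the mutant libraries and 15 and 11 in the wild-type libraries, at least 11.6-fold lower when 3 reads are allowed over the mutant libraries together. *Teh2* had 1 and 2 mutant reads and 16.6 and 10 wild-type reads, a mutant level of 8.30% of wild type with a 95% exact binomial interval of 1.61% to 27.0% that covers counting error only, as do the intervals below. *tipE* had 1.74 and 1.74 mutant reads and 12.5 and 19.8 wild-type reads. In each of these genes the lower wild-type library stood at several times the higher mutant library, by the rule that chose them. The mutant fraction of *tipE* was assigned to its transcript RA, which had no wild-type read, and all wild-type reads to RB.

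Other genes in and around the locus differed in level and in direction. *Teh3*, a further homolog sharing 229 exon bases with *Teh2*, had 0 and 0 mutant reads and 4.38 and 5 wild-type reads, below the limit of the rule. *CG18675*, whose span reaches across *Teh4* and *Teh2* into *tipE* on the opposite strand to *Teh4* and whose exons share 777 bases with *tipE* on the same strand, had 1.26 and 0.264 mutant reads and 19.5 and 9.23 wild-type reads, so that reads of *tipE* and *CG18675* cannot be fully told apart. *VhaM9.7-c*, a subunit of the vacuolar proton pump that lies inside the locus, had 624 and 594 reads in the mutant and 437 and 412 in wild type. Its log2 fold change of 0.10 was not called, with an adjusted p of 0.477 in edgeR's test. Of the flanking genes, *Ero1L*, a thiol oxidase of the endoplasmic reticulum, was called higher with a log2 fold change of 0.64, and *CG43367* was at 0.48, under the limit for a call. *Rop* (0.67), *Ras64B* (0.51) and *ImpL2* (1.17) were also called higher, and *Cpr64Ad* (-2.41) was called lower. Others nearby, such as *Akh* and *mas*, were low in both conditions. *Teh1*, on chromosome 3R, was at the floor in both conditions, with 0 and 0 mutant reads and 1 and 1 wild-type reads. The channel gene *para* had 328 and 322 reads in the mutant and 224 and 140 in wild type, a log2 fold change of 0.44 that was not called (adjusted p = 0.0607, edgeR). *Teh1*, *para* and the genes of this locus from *VhaM9.7-c* on were chosen for description after their values were seen.

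**Figure D3:**
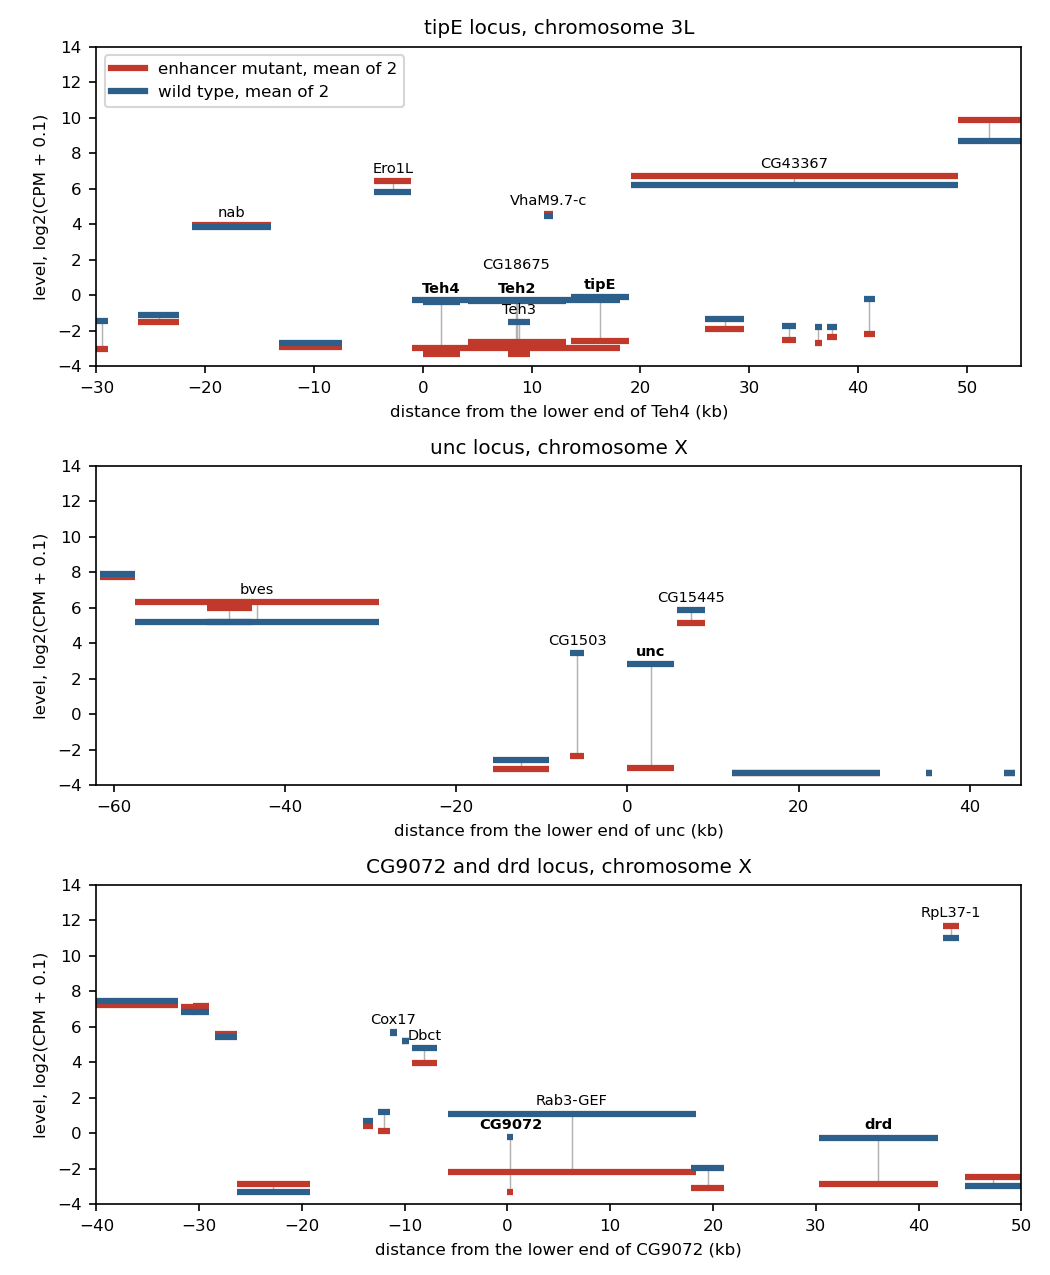
Mean level of each gene, as log2(CPM + 0.1), against its distance in kb from the lower end of *Teh4*, *unc* or *CG9072*, with red bars for the enhancer mutant, blue bars for wild type (mean of 2 libraries each), bar length showing the gene's extent, and bold names for silent genes. Silent genes lie beside genes at like levels in both conditions, such as *VhaM9.7-c* within the *tipE* locus, and beside low ones such as *CG1503* and *Rab3-GEF*.

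Several other genes of neuronal signalling belonged to the set. *stnB* (chrX:22980722-23004648), the stoned B protein of synaptic vesicle endocytosis, had the most wild-type reads of the 42, at 0 and 0 in the mutant libraries and 184 and 121 in the wild-type libraries. It was at least 136-fold lower in the mutant. The annotation gives 4 transcripts of *stnB* and 4 of *stnA*, the other protein of this dicistronic locus, with the same 4 exon structures, so the reads belong to the locus and the 2 genes cannot be told apart. *DAT* (chr2R:16558567-16565238), the plasma membrane transporter that takes up dopamine, had 2 and 2 mutant reads and 77 and 53 wild-type reads, a mutant level of 2.30% (0.617% to 6.03%). Both mutant libraries were below both wild-type libraries in each case, again by the rule.

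*stum*, needed for mechanical sensing in proprioceptive neurons, had 2 and 0 mutant reads and 34 and 15 wild-type reads. *ppk8*, a subunit of the pickpocket family of epithelial-type sodium channels, had 1.39 and 1.15 mutant reads and 17.1 and 15.2 wild-type reads. It shares exon bases on the opposite strand with *CG2875* and *DIP-alpha*. Its wild-type reads were assigned to transcript RH in replicate 1 and to RG in replicate 2, so the split among transcripts differed between the wild-type libraries. Its total, by contrast, was alike in both wild-type libraries.

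The counts of called genes on the lists below are to be read against 15.3% lower and 12.6% higher among all tested genes. Of 29 pickpocket genes, 8 could be tested, 4 were lower, *ppk8* included, and 1 was higher in the mutant. The median log2 fold change over the tested genes, *ppk8* among them, was -0.59. Other ion channels numbered 67, with 26 tested, 8 lower and 5 higher (median -0.15). The synaptic vesicle and exocytosis list of 32 genes had 22 tested, 2 lower, *stnB* included, and 3 higher (median -0.01). None of these lists moved in a single direction. Neurotransmitter and peptide receptors numbered 72, with 24 tested, 6 lower and 4 higher (median -0.26). Immunoglobulin-family recognition proteins numbered 74, with 21 tested, 7 lower and 7 higher (median -0.30). Among all tested genes the median log2 fold change was -0.0037. For dopamine, a set gathered after the values were seen, *DAT* was the silent gene, while the receptor *Dop1R1* had 138 and 109 reads in the mutant and 27 and 13 in wild type and was called higher (log2 fold change 2.21, adjusted p = 2.22e-04, edgeR). *ple*, *Ddc* and *Vmat*, which make and package dopamine, had at most 9 reads in any library.

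*unc* (chrX:21111414-21116914), which encodes a protein of the basal body needed for mechanosensory cilia and sperm, was second in wild-type reads. It had 0 and 1 reads in the mutant libraries and 145 and 122 in the wild-type libraries, 7.02 ± 0.088 CPM in wild type (SD, n = 2), and a mutant level of 0.280% of wild type (0.00706% to 1.57%). Transcript RB took 96.2% of its wild-type reads. *CG1503*, 5.05 kb away and just outside the mutant limit, had 3 and 2 mutant reads and 194 and 214 wild-type reads, while *CG15445*, 0.245 kb away on the other side, had 1001 and 770 mutant reads and 1152 and 1039 wild-type reads. Both neighbours were called lower, with log2 fold changes of -6.70 and -0.73. Beside *stnB*, neither nearest tested neighbour was called lower. *FucTC*, 4.12 kb away, had 6 and 9 mutant reads and 13 and 12 wild-type reads. Its log2 fold change of -1.14 was not called at these low counts (adjusted p = 0.0884, edgeR). *CG34334*, 105 kb away, was higher with a log2 fold change of 1.68.

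On the list of 28 cilium and basal body genes 16 were tested, 5 were lower, none was higher (15.3% and 12.6% of all tested genes) and the median was -0.28. The lower genes besides *unc* were *Cep290*, a protein of the transition zone (log2 fold change -3.30), *Oseg6* (-1.86) and *Oseg4* (-1.52), of intraflagellar transport, and *ana2*, of centriole duplication (-0.57). These were lower but not silent. *Dhc1*, a dynein heavy chain, had 2 and 2 mutant reads and 20 and 11 wild-type reads over its 37 exons, the lowest wild-type level of the 42 in TPM. Among the other dynein heavy chains, gathered after the values were seen, *Dhc98D* had 16 and 3 mutant reads and 50 and 38 wild-type reads, *Dhc62B* was also lower (log2 fold change -0.64), *Dhc36C* was higher, with 132 and 85 mutant reads and 44 and 33 wild-type reads (1.06), and cytoplasmic *Dhc64C* had 11343 and 7374 mutant reads and 12315 and 7318 wild-type reads, without a call.

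Enzymes and transporters made up a further group. *GstE10* (chr2R:18396638-18398519), a glutathione S-transferase of the epsilon class that serves in detoxification, had 0 and 0 reads in the mutant libraries and 62 and 70 in the wild-type libraries, at least 58.9-fold lower. It sits at the end of a tandem cluster of the class and shares 20 exon bases on the opposite strand with *GstE1*, which had 11 and 9 mutant reads and 7 and 2 wild-type reads. Of the 13 other epsilon genes, compared after the values were seen, 9 were tested, 1 was lower and 2 were higher, near the shares of 15.3% and 12.6% over all tested genes. *GstE2* had 361 and 299 mutant reads and 93 and 72 wild-type reads (log2 fold change 1.58), *GstE13* was also higher (0.81), and *GstE3* was lower, at 2305 and 1961 mutant reads and 2450 and 2202 wild-type reads (-0.55). *GstE7*, at 605 and 533 mutant reads and 414 and 414 wild-type reads, was near 0 (0.04). Other genes of the class were low in both conditions, *GstE4* with 2 and 2 mutant reads and 4 and 0 wild-type reads and *GstE5* with 9 and 1 mutant reads and 6 and 4 wild-type reads, and were not tested. *GstE10* thus lay among relatives of high and of low counts.

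*Nepl17* (chr3R:28872905-28875031), of the neprilysin-like family of cell-surface metallopeptidase relatives, had 2 and 1 mutant reads and 66 and 70 wild-type reads, 1.65% of wild type (0.336% to 4.92%). It is the first of 5 neprilysin-like genes in a row. *Nepl18*, 0.59 kb on, had 0 and 6 mutant reads and 69 and 59 wild-type reads, and only the second mutant library kept it out of the set. The next genes went the other way, *Nepl19* with 7208 and 5998 mutant reads and 2498 and 2515 wild-type reads (log2 fold change 0.97) and *Nepl20* with 6813 and 5160 mutant reads and 2088 and 2121 wild-type reads (1.07). *Nepl21*, the last in the row, was lower, with 72 and 47 mutant reads and 234 and 185 wild-type reads (-2.24). *CG33203*, which overlaps the span of *Nepl17*, had 12 and 13 mutant reads and 109 and 94 wild-type reads (-3.42). *Nepl19*, *Nepl20* and *Nepl21* were chosen after their values were seen.

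**Figure D4:**
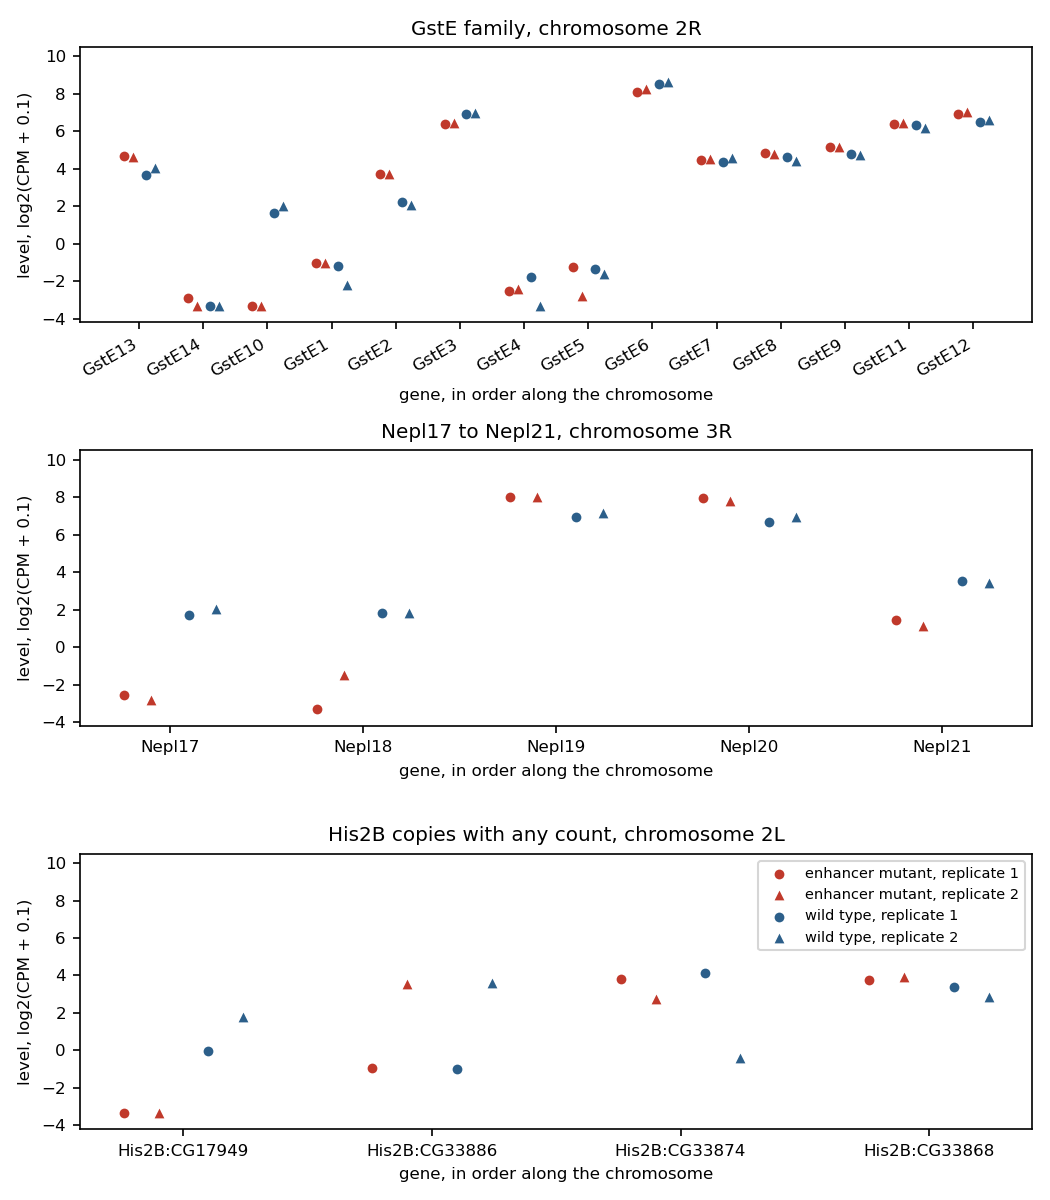
Level in each library as log2(CPM + 0.1) for the *GstE* genes, for *Nepl17* to *Nepl21* and for the *His2B* copies with any count, in chromosomal order, enhancer mutant (red) left of wild type (blue), with circles for replicate 1 and triangles for replicate 2. *GstE10* is low in the mutant beside relatives that are high or low in both conditions. *Nepl17*, *Nepl18* and *Nepl21* are lower in the mutant, while *Nepl19* and *Nepl20* are higher. The *His2B* copies differ between replicates of a condition.

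Among other enzymes and transporters, *yin* (chrX:3862966-3871939), a peptide transporter, had 1 and 1 mutant reads and 42 and 39 wild-type reads, a mutant level of 1.84% (0.220% to 6.88%). *Ugt302K1*, a UDP-glycosyltransferase, had 2 and 1 mutant reads and 12 and 19 wild-type reads, whereas *Ugt302C1* had 923 and 637 mutant reads and 885 and 735 wild-type reads. *y*, the yellow gene for black pigment of the cuticle, had 0 and 1 mutant reads and 11 and 11 wild-type reads. *drd*, the drop-dead gene whose loss shortens adult life, had 1 and 1 mutant reads and 12 and 16 wild-type reads. These 4 genes were each separated between conditions in all libraries, by the rule that chose them. The list of 168 detoxification enzymes had 75 tested, 16 lower and 11 higher (15.3% and 12.6% of all tested genes) with a median of -0.09, *GstE10* and *Ugt302K1* being its silent members.

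Regulators of transcription and splicing were present at low counts. *sr* (stripe), a zinc finger factor of the EGR type that specifies tendon cells, had 2 and 0 mutant reads and 27 and 16 wild-type reads. *dmrt93B*, a factor with a DM domain, had 2 and 2 mutant reads and 24 and 20 wild-type reads. *slbo*, the C/EBP factor of border cell migration in the ovary, had 2 and 1 mutant reads and 15 and 11 wild-type reads. These 3 factors stayed at or below 2 mutant reads per library, as the rule required. *dve*, a homeodomain factor named for its role in the proventriculus, had 1 and 1 mutant reads and 13 and 13 wild-type reads, which were split unlike between transcripts RA and RB in the 2 wild-type libraries. *LS2*, a testis splicing factor related to the large subunit of U2AF, had 0 and 0 mutant reads and 16 and 11 wild-type reads, at least 12.0-fold lower.

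*vis*, a TGIF-type homeodomain factor of spermatogenesis, had 2.09 and 1.07 mutant reads and 22.2 and 12.2 wild-type reads. Its tandem paralog *achi*, named after its values were seen, had 676 and 438 mutant reads and 435 and 381 wild-type reads, a log2 fold change of 0.01 (adjusted p = 0.933, edgeR). The fractional counts of *vis* show that some of its reads were shared out with other transcripts, and *achi* had far more reads. On the list of 49 testis genes 8 were tested, 1 was lower (*vis*) and 1 was higher, with a median of 0.12. Over all tested genes 15.3% were lower and 12.6% higher. The 67 homeodomain and patterning factors had 6 tested, 1 lower and none higher (median -0.25), and the 11 genes of the *E(spl)* complex, which are targets of Notch signalling, had 2 tested and none called (median -0.20). No silent gene was on either of these lists, which were set by symbol and do not include the silent homeodomain genes *dve* and *vis*.

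Planar polarity, the alignment of cells within an epithelium, was represented by *fj* and *in*. *fj* (four-jointed) is a Golgi kinase that modifies the cadherins Fat and Dachsous, and had 1 and 1 mutant reads and 17 and 21 wild-type reads. *in* (inturned), an effector that limits wing hair formation, had 1 and 1 mutant reads and 15 and 12 wild-type reads. Of the 12 other genes of this kind, gathered after the values were seen, 8 were tested, 2 were lower and none was higher. Among all tested genes 15.3% were lower and 12.6% higher. *fz*, the receptor frizzled, had 53 and 55 mutant reads and 166 and 140 wild-type reads (log2 fold change -1.91), and *dgo* (diego) had 7 and 3 mutant reads and 38 and 21 wild-type reads (-2.94). *Vang* had 7300 and 5714 mutant reads and 4524 and 3895 wild-type reads and was not called.

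The silent status of *His2B:CG17949* could not be separated from the sharing of reads among identical or nearly identical genes. It is a copy of the histone H2B gene in the histone repeat on chromosome 2L and had 0 and 0 mutant reads and 17.9 and 58.4 wild-type reads, the widest gap between the wild-type replicates among the 42 in CPM. *His2B:CG33886* had 11.6 and 270 mutant reads and 8.27 and 211 wild-type reads, so replicates of the same condition differed more than the conditions did. *His2B:CG33874* had 382 and 152 mutant reads and 359 and 11.5 wild-type reads. Summed over the 7 copies quantified, *His2B* had 765 and 769 reads in the mutant and 594 and 407 in wild type. Total H2B reads were therefore present in both conditions, and the value of this copy alone is uncertain.

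Of the genes without a given name, *CG30091* (chr2R:15680545-15682477) had the most reads, with 0 and 0 in the mutant libraries and 66 and 64 in the wild-type libraries, at least 58.0-fold lower. RefSeq lists it with a serine protease synonym, as it does *CG33465* (2 and 0 mutant reads, 33 and 28 wild-type reads) and *CG18754* (1 and 1 mutant reads, 14 and 12 wild-type reads). These were not on the list of 43 secreted serine proteases, where 13 were tested, 4 lower, 1 higher and none silent (median -0.11). The shares over all tested genes were 15.3% lower and 12.6% higher. *CG5404* had 1 and 1 mutant reads and 39 and 24 wild-type reads. *CG18808* had 2 and 2 mutant reads and 32 and 11 wild-type reads, with the wild-type replicates 2.49-fold apart in CPM.

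The pseudogene *CR33221* had 1 and 0 mutant reads and 16 and 26 wild-type reads, and *CG15870* had 2 and 1 mutant reads and 24 and 17 wild-type reads. The other numbered genes, *CG5376*, *CG9416*, *CG7778*, *CG9072*, *CG17036*, *CG34184*, *CG6282*, *CG10064*, *CG6432*, *CG6652* and *CG13243*, had between 0 and 2 mutant reads and between 10 and 22 wild-type reads per library. At these counts a single read moves the estimate. *CG13243*, with 0 and 2 mutant reads and 11 and 10 wild-type reads, had a mutant level of 7.12% of wild type with an interval of 0.809% to 29.1%.

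The remaining lists held no silent gene, and their calls stand beside 15.3% lower and 12.6% higher among all tested genes. Chemosensory receptors and binding proteins numbered 245, with 30 tested, 9 lower and 4 higher (median -0.19). Cuticle proteins numbered 124, with 9 tested, 3 lower and 1 higher (median -0.26). Immune effectors numbered 40, with 12 tested, 4 lower and 1 higher (median -0.61). Sarcomere genes numbered 25, with 10 tested, 3 lower and 2 higher (median 0.16).

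Silent genes were found on all major arms. There were 13 on chromosome 2R (0.799% of its genes with 10 wild-type reads), 9 on 3R (0.464%), 8 on X (0.584%), 8 on 3L (0.523%) and 4 on 2L (0.290%), and none on 4 or Y. Apart from the *tipE* locus, *CG9072* and *drd* on X, 30.3 kb apart, were the other pair within 50 kb, and the other 37 genes stood singly. *CG9072* lies within *Rab3-GEF*, an exchange factor for the Rab3 GTPase of synaptic vesicles, which had 3 and 3 mutant reads and 51 and 29 wild-type reads and was just outside the mutant limit (log2 fold change -4.08, adjusted p = 1.10e-04, edgeR). On the far side of *drd*, the ribosomal protein gene *RpL37-1*, named after its values were seen, was higher, with a log2 fold change of 0.70.

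The megabase segment of the X chromosome that the study names the *Notch* enhancer mega-domain held 3 of the 42 genes, *ppk8*, *CR33221* and *yin*. They were 8.33% of the 36 genes there with 10 reads in both wild-type libraries, against 0.494% (39 of 7898) elsewhere. The shares rest on 3 genes in the segment and were not matched for wild-type count, on which the silent share depended. The difference was not tested. The segment was set here by coordinates that 57 quantified genes overlap, and its limits may differ from those of the study. *CG2930*, which shares 242 exon bases on the opposite strand with *yin*, had 4 and 5 mutant reads and 24 and 28 wild-type reads (log2 fold change -2.92). *CG2875* and *DIP-alpha*, which overlap *ppk8*, were lower by less, at -1.24 and -1.32.

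Most of the nearest neighbours of the silent genes were not called, but the share called lower exceeded that of all tested genes. The nearest tested genes on either side, 79 distinct genes outside the set, comprised 25 lower (31.6%), 6 higher and 48 not called. Of all tested genes 15.3% were lower and 12.6% higher. The lower ones included *CG18675*, *Rab3-GEF*, *CG2930*, *CG2875*, *DIP-alpha* and *CG33203*, which overlap a silent gene, and *CG1503* and *Nepl18*, which missed the mutant limit by few reads. Other overlapping neighbours, such as *Nrk* and *Dis3*, were not called. *CG2930*, *CG2875* and *DIP-alpha* also lie beside silent genes of the mega-domain segment. The parts of overlap and of that segment in the share were not tested. For 39 silent genes with a tested neighbour within 50 kb, the median of those neighbours' log2 fold changes ran between -1.28 and 0.34, with a median of -0.04. Over 7825 other genes with 10 wild-type reads the same measure had a median of -0.002. It was below -0.5 for 5 of the 39 (12.8%), *ppk8* (-1.28), *CR33221* (-1.26), *CG5404* (-1.26), *yin* (-0.99) and *CG30091* (-0.72), and for 3.49% of the others. It was above 0.5 for none of the 39 and for 2.21% of the others. Of the 5 genes below -0.5, *ppk8*, *CR33221* and *yin* lie in the mega-domain segment. The medians for *ppk8* and *CG5404* rest on 2 tested neighbours each. Next to *DAT*, *CG4945* had 8 and 15 mutant reads and 53 and 71 wild-type reads (-2.84), while *Sema2a* on the other side had 1081 and 777 mutant reads and 377 and 328 wild-type reads (0.97). Beside *in*, *Toll-9* had 1 and 2 mutant reads and 9 and 8 wild-type reads, and *Ide*, 1.41 kb away, had 2742 and 1949 mutant reads and 1875 and 1368 wild-type reads. These neighbours were named after their values were seen.

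**Figure D5:**
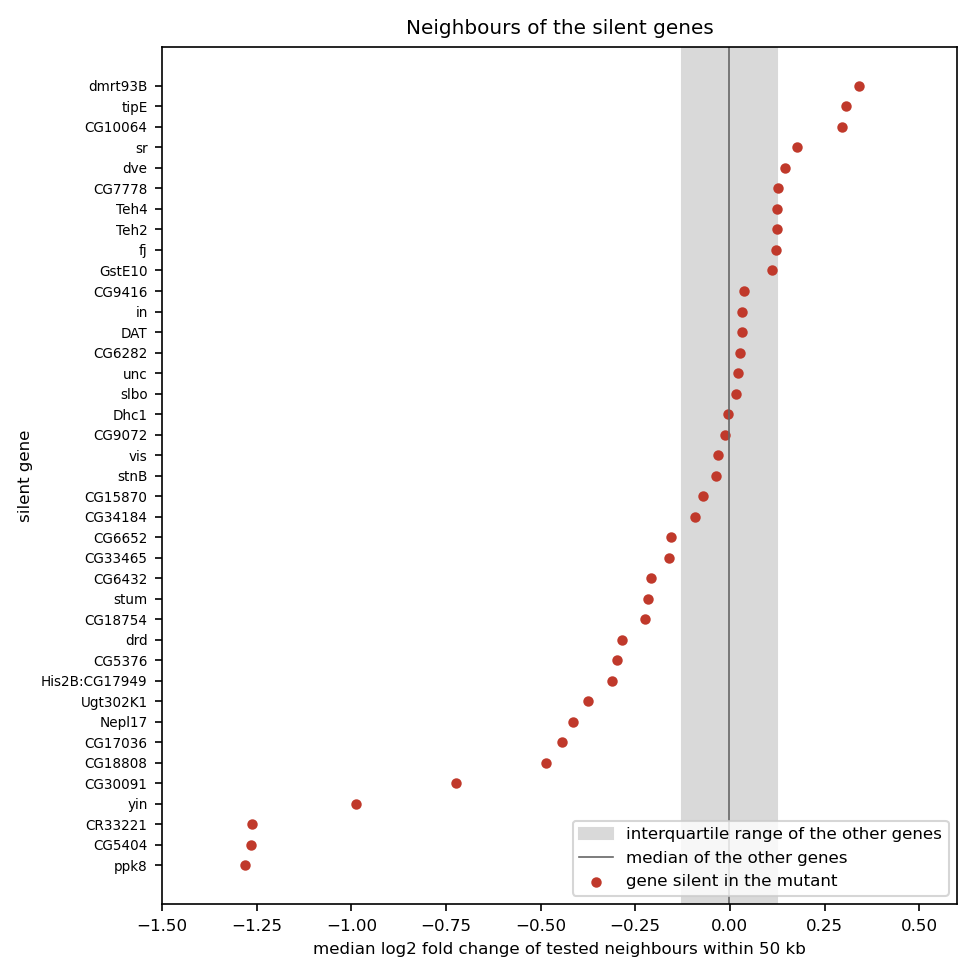
Median log2 fold change (mutant over wild type) of the tested genes within 50 kb of each of 39 silent genes, 1 point per gene, with the median and interquartile range of the same measure over 7825 other genes in grey. Points lie between -1.28 and 0.34, and 5 are below -0.5.

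In length and exon number the 42 genes were close to other genes read in wild type. Their longest transcript had a median of 2312 bases and 5 exons, against 2070 bases and 4 exons over genes with 10 reads in both wild-type libraries. Exon bases were shared with another quantified gene by 11 of them (26.2%, against 37.3%), on the same strand by *tipE*, *Teh2*, *CG18808*, *CG18754* and *CG6432*. The partners of the last 3, *Dhc64C*, *SPE* and *Dis3*, share between 39 and 149 bases with them. On the opposite strand *CG15870* overlaps *Nrk*, *CG5376* overlaps *Pfdn5* and *CG9416* overlaps *CG10051*, which had 0 and 5 mutant reads and 10 and 7 wild-type reads. Whole-number counts in all libraries, within 0.01 of an integer, were found for 37 genes. The exceptions were *His2B:CG17949*, *Teh2*, *ppk8*, *tipE* and *vis*.

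The limits of the rule cut through a continuous range. Just inside the mutant limit were *vis*, *Dhc1* and *DAT*, and just outside were *CG1503*, *Rab3-GEF* and *CG13516*, the last with 3 and 0 mutant reads and 46 and 30 wild-type reads. In all, 19 genes with 10 wild-type reads in both libraries had 3 reads in their higher mutant library. Just inside the wild-type limit were *CG13243*, *CG6652* and *CG6432*. Just outside were *CG18675*, *CG11898* (0 and 1 mutant reads, 17 and 9 wild-type reads) and *mAChR-C* (2 and 0 mutant reads, 10 and 9 wild-type reads). The same rule turned round, with at least 10 reads in both mutant libraries and fewer than 3 in both wild-type libraries, found 5 genes, 0.0647% of 7731.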

How the data were processed

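The authors quantified transcripts with Salmon 0.10.2 against a dm6 transcriptome and deposited, for each library, estimated counts and TPM values of 30070 transcripts. The deposited estimated counts are not normalized, and the deposited TPM values are corrected for effective length and scaled to a sum of 1000000 per library. Genes were taken for each transcript from the Ensembl annotation of the same build (29850 matched, the other 220 holding 0.230% to 0.292% of the counts), and both measures were summed per gene. Counts rounded to whole numbers were tested with edgeR 4.0.16 in R 4.3.3 (filterByExpr, TMM, quasi-likelihood test, condition only, 8182 genes kept), with calls at Benjamini-Hochberg adjusted p under 0.05 and a log2 change of 0.5 or more in size. CPM used TMM effective library sizes. Counting intervals were exact binomial at 95%, from scipy 1.17.1, and a group at 0 was given 3 counts. DESeq2 1.42.0 was an alternative.

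The 42 genes and all gene lists were chosen with earlier results of these data known. Genes were named when they were among the 25 with the highest wild-type CPM, lay in the mega-domain or within 50 kb of another, were on a list, stood nearest to a limit or shared exons with such a gene. Other named genes were chosen after their values were seen. No sequence was used here.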

Additional observations from a re-analysis of the deposited data

How the results depend on the processing

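The number of silent genes followed the limits of the rule. It was 42 as reported, 144 with at least 5 wild-type reads, 10 with at least 20 and 6 with at least 50. It was 79 with fewer than 5 mutant reads, 8 with no mutant read and, chosen after seeing the data, 24 with fewer than 2. Scaling reads to the smallest library gave 85 genes, 40 of the 42 among them (*CG13243* and *y* were lost), and thinning to that depth gave 74, with 38 of the 42 among them (*CG10064*, *CG17036*, *drd* and *y* were lost). Leaving out each library in turn gave between 61 and 96 genes, 96 without wild-type replicate 2 and 91 without mutant replicate 1. All 42 were among them each time, which was fixed in advance, since leaving out a library only removes a condition of the rule. Genes with no shared exon base numbered 31, those with whole-number counts 37 and those outside the mega-domain 39, the last 2 settings having been chosen after seeing the data. The median wild-type level was 0.523 TPM, between 0.532 and 0.540 TPM in a single library, and 0.861 CPM on the other scale.

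Calls of the 42 reuse the counts that chose them and so are no separate test. All 42 were called lower under RLE factors, no filter, DESeq2 and without mutant replicate 2. Without mutant replicate 1, 36 of 42 were called, and *y*, *CG13243*, *Teh2*, *CG10064*, *CG6652* and *CG6432* were not. Without wild-type replicate 1 or 2, 28 and 37 passed the filter and were called. In these fits the lone library is assumed to vary like the other condition. Over all genes, single libraries left out gave 880 to 1237 lower and 893 to 1124 higher genes, and DESeq2 gave 976 and 1019. A replicate block gave 1236 lower, 1040 higher and 42 of the 42. Across tested genes, the deviations of same-numbered libraries from their condition means correlated at 0.168. With 2 libraries per condition this cannot settle whether the numbers mark a shared batch, which the labels do not say. *Notch* stayed between -2.11 and -1.77. Library sizes without TMM moved the median log2 fold change of all genes to -0.197. The planned search for promoter motifs was not run, since no sequence was used here.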

Other observations

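The 5 genes of the reverse rule were silent in the wild-type libraries and present in the mutant. *CG42402*, on chromosome 3R, had 469 and 301 reads in the mutant and 1 and 0 in wild type. *GC*, on 3L, which encodes the gamma-glutamyl carboxylase of vitamin K-dependent modification, had 174 and 146 reads in the mutant and 1 and 0 in wild type. *pre-mod(mdg4)-Y*, an exon unit of the trans-spliced *mod(mdg4)* locus, had 69.6 and 49.0 reads in the mutant and 0 and 0 in wild type, and it shares 1894 exon bases on the same strand with its sister units, so its value is uncertain. *Cpr11A*, a cuticle protein, had 37 and 23 mutant reads and 1 and 1 wild-type reads, and *dpr21*, of the immunoglobulin family of synaptic recognition, had 24 and 12 mutant reads and 1 and 0 wild-type reads. These genes lay on 4 chromosome arms.

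The germ line differentiation factor *bam*, named after its values were seen, was far lower in the mutant without being silent, with 44 and 26 mutant reads and 257 and 237 wild-type reads (log2 fold change -3.24, adjusted p = 1.30e-06, edgeR). By CPM, 24 of the 42 silent genes were higher in wild-type replicate 1 and 18 in replicate 2.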
